A study of Mus musculus with 4 samples.

Results

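The guanylate-binding proteins (GBPs) are interferon-inducible GTPases, and 8 of the mouse genes that encode them, *Gbp2*, *Gbp3*, *Gbp4*, *Gbp5*, *Gbp6*, *Gbp7*, *Gbp8* and *Gbp9*, were described here in hematopoietic progenitors lacking PICH. The 8 genes were taken by symbol from the 39186 genes of the table, which also lists 4 other *Gbp* genes, *Gbp2b*, *Gbp10*, *Gbp11* and the pseudogene *Gbp2-ps*. RNA sequencing had been done on LSK cells, the lineage-negative fraction with Sca-1 and c-Kit on the surface that holds the hematopoietic stem cells, sorted from C57BL/6 fetal liver. The 2 *Pich*-KO samples carry a constitutive deletion of a few bases in the second exon of *Pich*, made with TALEN nucleases, and the 2 *Pich*-WT samples are wild type at that gene. *Pich* is X-linked, no other allele or treatment is named for either group, and the methods take livers for sorting at embryonic day 14.5, while the sample labels give no day and do not say whether embryos were pooled. The lineage antibodies were against CD4, CD8, Gr-1, B220 and Ter119, so the gate holds none against a macrophage or endothelial protein.

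GBPs belong to the dynamin superfamily of large GTPases and are among the transcripts that type I and type II interferons raise most in many cell types. Their promoters are read by transcription factors that the interferon receptors activate and by IRF1. The proteins bind GTP, form oligomers and coat the vacuoles or surfaces of intracellular bacteria and parasites, where they work with a related family, the immunity-related GTPases (IRGs), and help to set off inflammasomes. Some of them, GBP2 and GBP5 among the mouse proteins, end in a motif that receives a lipid anchor.

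The 4 libraries held 14703215 to 20933919 reads on genes, and every deposited value was a whole number of reads divided by one factor per sample, called a normalized count below. The targeted gene, listed as *Ercc6l*, stood at 1142 and 1232 normalized counts in the *Pich*-KO samples and at 772 and 661 in the *Pich*-WT samples, a log2 fold change of 0.73 (SE 0.14, adjusted p = 0.00887, limma). A gene total cannot show a deletion of a few bases, so this value checks no label. The 4 Y-linked genes examined had 0 reads in *Pich*-WT sample 2 and reads in all 3 of the other samples. The LSK genes *Kit* and *Ly6a*, which encode the sorted proteins c-Kit and Sca-1, were at 901 normalized counts or more in all samples.

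The 8 genes form a cluster on each of 2 chromosomes (GRCm38, positions from the table). On chromosome 3, plus strand, lie *Gbp5* (ENSMUSG00000105504, chr3:142493978-142522344), *Gbp7* (ENSMUSG00000040253, chr3:142530342-142550149), *Gbp3* (ENSMUSG00000028268, chr3:142560026-142573209) and *Gbp2* (ENSMUSG00000028270, chr3:142620602-142638008). On chromosome 5, minus strand, lie *Gbp8* (ENSMUSG00000034438, chr5:105014150-105139540), *Gbp9* (ENSMUSG00000029298, chr5:105077630-105139539), *Gbp4* (ENSMUSG00000079363, chr5:105115767-105139586) and *Gbp6* (ENSMUSG00000104713, chr5:105270702-105293698). The copies are alike in sequence, and how the authors treated reads that fit more than one gene is not given in the sources used here. Within the chromosome 5 cluster the coding sequences of the 4 genes were 90.6 to 92.9% identical, and *Gbp6* was 98.4% identical to *Gbp10*. *Gbp7* and *Gbp3* were 79.5% identical. Of all stretches of 50 bases in the annotated transcripts, the share also found in another *Gbp* gene was 49.9% for *Gbp6*, 18.1% for *Gbp8*, 8.05% for *Gbp9*, 7.53% for *Gbp4*, 3.75% for *Gbp3*, 2.26% for *Gbp7*, 2.03% for *Gbp2* and 0% for *Gbp5*. In addition 29.0% of the exonic bases of *Gbp6* are shared with the gene model *Gm43302*, which runs across *Gbp10* and *Gbp6* and was listed with 2 reads in one *Pich*-KO sample and 0 in the other samples, and 11.3% of those of *Gbp7* with the model *Gm43802*, not analysed here. The gene bodies of *Gbp8*, *Gbp9* and *Gbp4* overlap, although they share at most 61 exonic bases. The level of *Gbp6* is therefore uncertain, and those of *Gbp8*, *Gbp9* and *Gbp4* less so.

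The promoters are shown because both interferon pathways act through short DNA motifs there. RefSeq (GRCm38.p6) windows were matched for 4 of the 8 genes, those on chromosome 3, and not for *Gbp4*, *Gbp6*, *Gbp8* and *Gbp9*. *Gbp3* had a further window inside the gene, which held neither motif and is not printed. Each window is printed 5′ to 3′ on the plus strand, from 250 bases before the RefSeq start up to that start, or only to the first start of a coding transcript in GENCODE M21 where that comes earlier, the response element being kept whole, with matches to an interferon-stimulated response element (GAAANNGAAA on either strand) or to a gamma-activated site (TTCNNNGAA, the same on both strands) in capitals. The windows are chr3:142496684-142496899 for *Gbp5*, chr3:142530086-142530335 for *Gbp7*, chr3:142559794-142560025 for *Gbp3* and chr3:142620413-142620613 for *Gbp2*, and the last base printed is at -35, -1, -19 and -50 from the RefSeq start. The *Gbp5* window lies within the gene body of the table, which starts farther upstream, and the response element of *Gbp2* lies just inside the annotated gene.
Gbp5: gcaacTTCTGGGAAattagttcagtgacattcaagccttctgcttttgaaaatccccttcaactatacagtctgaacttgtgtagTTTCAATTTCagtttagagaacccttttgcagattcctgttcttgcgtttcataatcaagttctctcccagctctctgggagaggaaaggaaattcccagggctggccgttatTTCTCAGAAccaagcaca
Gbp7: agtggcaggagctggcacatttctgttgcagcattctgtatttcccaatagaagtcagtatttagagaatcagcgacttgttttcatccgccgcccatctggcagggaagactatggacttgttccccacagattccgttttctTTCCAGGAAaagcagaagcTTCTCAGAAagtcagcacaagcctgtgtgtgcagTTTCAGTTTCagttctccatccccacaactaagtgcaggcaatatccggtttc
Gbp3: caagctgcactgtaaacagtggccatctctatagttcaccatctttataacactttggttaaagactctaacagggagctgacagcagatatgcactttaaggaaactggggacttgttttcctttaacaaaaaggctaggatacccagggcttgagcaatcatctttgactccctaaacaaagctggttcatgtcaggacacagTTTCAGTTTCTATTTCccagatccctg
Gbp2: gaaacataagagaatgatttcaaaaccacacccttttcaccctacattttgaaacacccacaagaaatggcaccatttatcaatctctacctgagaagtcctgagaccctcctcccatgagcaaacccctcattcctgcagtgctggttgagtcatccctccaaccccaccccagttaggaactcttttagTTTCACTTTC
Each of the 4 held the response element, at positions -165 to -156 from the RefSeq start in *Gbp5*, -53 to -44 in *Gbp7*, -45 to -36 in *Gbp3*, where a second match overlaps it at -39 to -30, and -59 to -50 in *Gbp2*. The gamma-activated site was matched at -245 to -237 and -52 to -44 in *Gbp5* and at -106 to -98 and -87 to -79 in *Gbp7*, and these letters were not found in the windows of *Gbp3* and *Gbp2*. No gamma-activated site match overlapped a response element match. Of all 32851 RefSeq promoter windows, which run to 50 bases past the start, 3.443% held the response element, 8.298% the gamma-activated site and 0.454% both.

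The loss of PICH went with a split in the family. *Gbp3*, *Gbp5* and *Gbp7* were higher in *Pich*-KO than in *Pich*-WT LSK cells by 2.13 to 2.72 times, and *Gbp8* was lower by 4.61 times. *Gbp2*, *Gbp4*, *Gbp6* and *Gbp9* did not pass the test, which was limma on log2(normalized count + 1) with an adjusted p under 0.05 over all 32428 genes that averaged at least 1. All 8 genes passed that minimum. Thus 3 of 8 were called higher and 1 of 8 lower, where 7.58% of all genes were called higher and 9.6% lower. The median log2 fold change over the 8 genes was 0.78, against 0.02 over all genes tested. The *Pich*-KO samples lay above both *Pich*-WT samples for 4 of the 8, *Gbp3*, *Gbp5*, *Gbp6* and *Gbp7*, and below both for *Gbp8*, where 28.9% of all genes lay above and 27.2% below. In these bulk samples fewer cells of a type and less RNA per cell cannot be told apart.

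**Figure D1:**
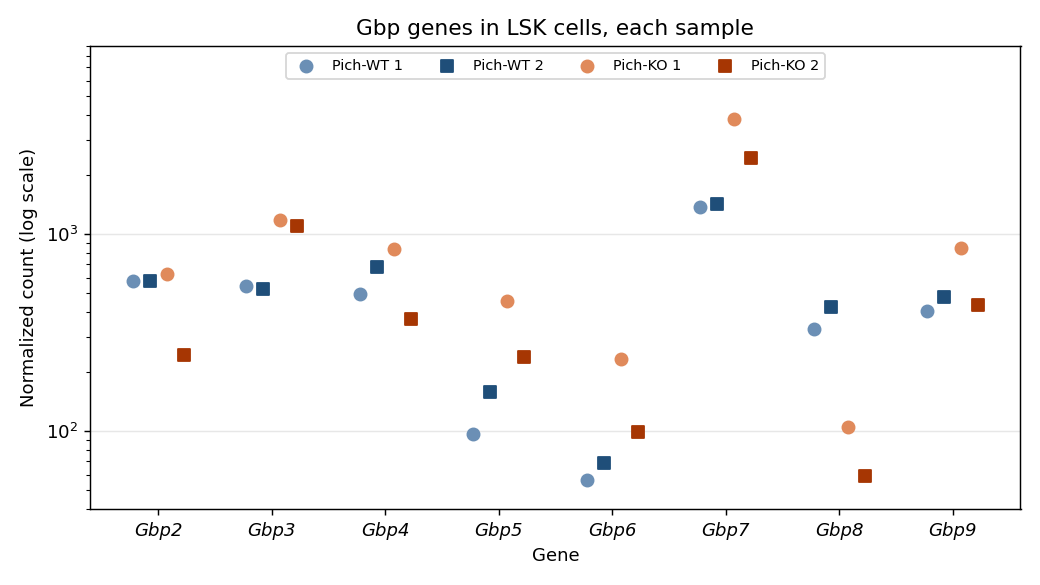
Normalized count (log scale) of each of the 8 *Gbp* genes in the 2 *Pich*-WT samples (blue) and the 2 *Pich*-KO samples (orange), one point per sample. Both orange points lie above both blue points for *Gbp3*, *Gbp5*, *Gbp6* and *Gbp7* and below them for *Gbp8*, while for *Gbp2* and *Gbp4* the *Pich*-KO samples lie on either side of the *Pich*-WT samples.

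On chromosome 3, *Gbp7*, whose protein is linked to assembly of the phagocyte NADPH oxidase, had 3831 and 2438 normalized counts in the *Pich*-KO samples against 1375 and 1419 in *Pich*-WT samples. Both *Pich*-KO samples lay above both *Pich*-WT samples, with means of 3134 ± 984 and 1397 ± 30.8 (SD, n = 2 each). The log2 fold change was 1.13 (SE 0.19, 95% interval 0.68 to 1.58, adjusted p = 0.0054). *Gbp3* had 1170 and 1092 normalized counts in the *Pich*-KO samples against 542 and 523 in the *Pich*-WT samples. Samples of one genotype were closer to each other for *Gbp3* than for any other of the 8 genes relative to the difference between the genotypes, and the log2 fold change was 1.09 (SE 0.13, interval 0.78 to 1.39, adjusted p = 0.00114). *Gbp5*, a GBP that promotes NLRP3 inflammasome assembly, had 455 and 238 normalized counts in *Pich*-KO against 96.1 and 158 in *Pich*-WT samples. The groups did not overlap, but the spread in each was wide, with means of 346 ± 154 and 127 ± 43.8 (SD, n = 2 each). Its log2 fold change of 1.41 (SE 0.35, interval 0.59 to 2.23) passed at an adjusted p of 0.0293. The call on *Gbp5* was lost with a pseudocount of 0.1 (adjusted p = 0.0677) and with no filter on low genes (adjusted p = 0.0942).

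*Gbp2*, the last member in that row of genes and one of the lipid-anchored GBPs, did not pass the test. It was at 628 and 242 normalized counts in the *Pich*-KO samples and at 574 and 578 in the *Pich*-WT samples. The *Pich*-WT samples were nearly equal and *Pich*-KO sample 2 alone was low. The log2 fold change was -0.56 (SE 0.38, interval -1.43 to 0.31, adjusted p = 0.397), and it was -1.25 without *Pich*-KO sample 1 and 0.12 without *Pich*-KO sample 2. Within a sample, the ratio of *Gbp7* to *Gbp2* counts was 6.10 and 10.1 in *Pich*-KO against 2.39 and 2.46 in *Pich*-WT samples, and that of *Gbp3* to *Gbp2* was 1.86 and 4.51 against 0.943 and 0.905. Neither ratio overlapped between the genotypes. These pairs were chosen after the values were seen and were not tested.

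On chromosome 5, *Gbp8* was the one gene of the 8 that was called lower. It had 105 and 59.1 normalized counts in the *Pich*-KO samples against 331 and 424 in *Pich*-WT samples, from 96 and 52 reads against 423 and 424. The means were 81.9 ± 32.2 and 377 ± 66.1 (SD, n = 2 each), and the groups were far apart. The log2 fold change was -2.24 (SE 0.30, interval -2.93 to -1.54, adjusted p = 0.00176).

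*Gbp9* and *Gbp4* run through the same stretch of the minus strand as *Gbp8*. *Gbp9* had 851 and 435 normalized counts in *Pich*-KO against 404 and 479 in *Pich*-WT samples, and *Pich*-KO sample 1 alone lay above the rest. Its log2 fold change was 0.47 (SE 0.29, interval -0.21 to 1.14, adjusted p = 0.353). *Gbp4*, whose protein has been described as a restraint on IRF7, had 838 and 371 normalized counts in *Pich*-KO against 496 and 679 in *Pich*-WT samples. The *Pich*-KO samples enclosed the *Pich*-WT samples, and the log2 fold change was -0.06 (SE 0.35, interval -0.86 to 0.75, adjusted p = 0.941), a value that turned to 0.06 with edgeR and to 0.17 without *Pich*-WT sample 2. Per read of *Gbp4* there were 0.125 and 0.160 reads of *Gbp8* in the *Pich*-KO samples against 0.666 and 0.624 in *Pich*-WT samples. Per read of *Gbp9* there were 0.123 and 0.136 against 0.818 and 0.885. Added into one value, *Gbp4*, *Gbp8* and *Gbp9* did not pass the test, with a log2 fold change of -0.16 (SE 0.30, interval -0.86 to 0.54, adjusted p = 0.784).

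*Gbp6* had 232 and 98.9 normalized counts in *Pich*-KO against 56.3 and 69.0 in *Pich*-WT samples. The groups did not overlap, and *Pich*-KO sample 1 stood well above the others. The log2 fold change of 1.27 (SE 0.40, interval 0.34 to 2.19) did not pass in limma (adjusted p = 0.0695) and passed in edgeR on the recovered reads (adjusted p = 0.0391). edgeR called 4 of the 8 genes higher and 1 lower, where it called 18.6% of 16608 genes higher and 20.7% lower. *Gbp10*, its near-identical copy, had 18.5 and 7.96 normalized counts in *Pich*-KO against 12.5 and 15 in *Pich*-WT samples.

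**Figure D2:**
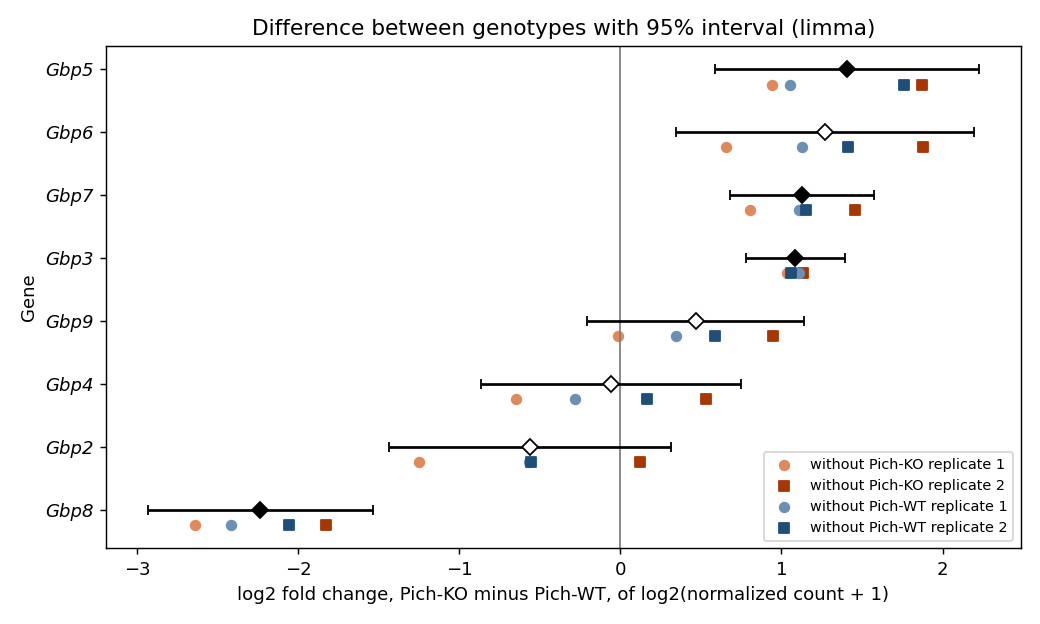
Log2 fold change of *Pich*-KO over *Pich*-WT for the 8 genes on the log2(normalized count + 1) scale (diamonds, with the 95% interval from limma; filled where the adjusted p was under 0.05), and the same difference with each sample left out (colored points below). *Gbp3* ranges only from 1.04 to 1.14 as samples are left out, whereas *Gbp4* ranges from -0.65 to 0.53.

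The other *Gbp* genes had low counts. For *Gbp10*, 76.2% of the stretches of 50 bases are also found in another *Gbp* gene, and for *Gbp11* 19.2%. In addition 46.3% of the exonic bases of *Gbp10* are shared with *Gm43302*, so the level of *Gbp10* is uncertain. *Gbp2b* had 6.54 and 5.68 normalized counts in *Pich*-KO against 6.25 and 3 in *Pich*-WT samples, and *Gbp11* had 10.9 and 3.41 against 8.60 and 14.0. The log2 fold change of *Gbp11* was -0.73, and -0.41 without *Pich*-WT sample 2. None of *Gbp2b*, *Gbp10* and *Gbp11* passed, with adjusted p of 0.547 to 0.901 in limma, 0 of 3 at an unadjusted p under 0.05 and 0 of the 2 that edgeR tested. *Gbp2-ps* was covered by 5 reads in each *Pich*-KO sample against 0 and 1 in *Pich*-WT samples (adjusted p = 0.097).

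The 8 genes together had 8109 and 4974 normalized counts in the *Pich*-KO samples against 3875 and 4329 in *Pich*-WT samples. The sum was higher in both *Pich*-KO samples, by a small margin in *Pich*-KO sample 2. The make-up of the sum differed between the genotypes. Of the 8 shares that of *Gbp9* alone overlapped between them, but shares of a sum depend on each other. As counts *Gbp2* and *Gbp4* overlapped between the genotypes too. *Gbp7* gave 47.2 and 49.0% of the sum in *Pich*-KO against 35.5 and 32.8% in *Pich*-WT samples. *Gbp8* gave 1.29 and 1.19% against 8.53 and 9.79%, and *Gbp2* gave 7.75 and 4.87% against 14.8 and 13.4%. *Gbp3* gave 14.4 and 22.0% against 14.0 and 12.1%, so that its share in *Pich*-KO sample 1 was nearer to the *Pich*-WT samples than to *Pich*-KO sample 2. The 4 chromosome 3 genes gave 75.0 and 80.6% of it in *Pich*-KO against 66.8 and 61.9% in *Pich*-WT samples. These shares describe the values above and were not tested.

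**Figure D3:**
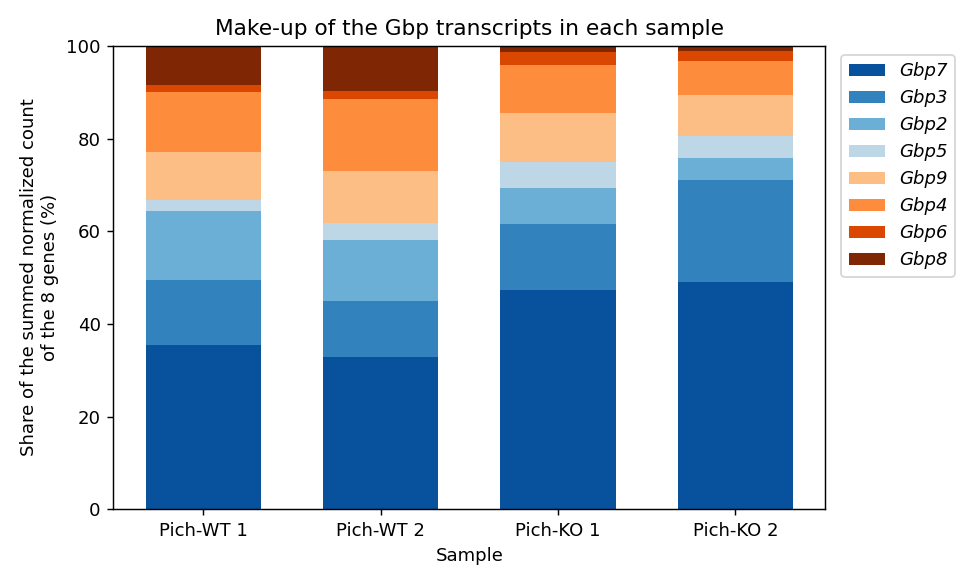
Share (%) of each gene in the summed normalized count of the 8 *Gbp* genes, one bar per sample (blue, chromosome 3 genes; orange to brown, chromosome 5 genes). *Gbp7* is the largest part of every bar, and *Gbp8*, at the top, shrinks from 8.53 and 9.79% in *Pich*-WT to 1.29 and 1.19% in *Pich*-KO samples.

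Levels were compared between genes as normalized counts per kilobase of the gene length in the table. In *Pich*-WT samples the order of the mean levels per kilobase was *Gbp7* at 249, *Gbp2* at 229, *Gbp3* at 163, *Gbp8* at 110, *Gbp9* at 85.4, *Gbp4* at 78.4, *Gbp5* at 19.1 and *Gbp6* at 10.5. Only the neighbours *Gbp9* and *Gbp4* overlapped between their samples. In *Pich*-KO samples it was *Gbp7* at 558, *Gbp3* at 347, *Gbp2* at 173, *Gbp9* at 124, *Gbp4* at 80.6, *Gbp5* at 52.2, *Gbp6* at 27.8 and *Gbp8* at 23.8. *Gbp7* and *Gbp3* stood apart, and from *Gbp2* down each gene overlapped the next. *Gbp8* was the fourth in the *Pich*-WT order and the last in the *Pich*-KO order.

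The *Pich*-KO samples differed from each other across the family. *Pich*-KO sample 1 was above sample 2 in 8 of 8 genes, by 1.07 times for *Gbp3* up to 2.59 times for *Gbp2*. The ratio was at least 1.5 in 7 of the 8, and 9.50% of the 11794 genes that averaged 50 or more had a ratio that high. Over those genes *Pich*-KO sample 1 was the higher in 52.1%. *Pich*-WT sample 1 was below *Pich*-WT sample 2 in 7 of the 8, with *Gbp3* as the exception, against 36.0% of genes. The 8 genes share their libraries, so this is 1 difference between 2 samples seen in 8 genes.

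The calls rested unequally on single libraries. With limma no gene of the table was called after any sample was left out, while 5757 to 8599 genes and 2 to 6 of the 8 *Gbp* genes had an unadjusted p under 0.05, so each sample was also left out with edgeR, a choice made after the data were seen. *Gbp3*, *Gbp7* and *Gbp8* were then called in 4 of 4 fits, with the largest adjusted p at 0.00353, 0.00636 and 0.00267. *Gbp5* was called in 3 of 4 and missed without *Pich*-WT sample 1 (adjusted p = 0.0557). *Gbp6* was called in 2 of 4, and missed without *Pich*-KO sample 1 (0.127) and without *Pich*-WT sample 1 (adjusted p = 0.1). *Gbp4* was called lower without *Pich*-KO sample 1 (log2 fold change -0.63, adjusted p = 0.0337) and higher without *Pich*-KO sample 2 (0.55, adjusted p = 0.0368). *Gbp2* was called lower without *Pich*-KO sample 1 (-1.22, adjusted p = 0.000222) and *Gbp9* higher without *Pich*-KO sample 2 (0.98, adjusted p = 0.000472). Without *Pich*-WT sample 2, the sample with 0 Y-linked reads, edgeR called *Gbp3*, *Gbp5*, *Gbp6* and *Gbp7* higher and *Gbp8* lower, as it did with all samples.

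The coding genes around the clusters were examined out to 250 kb. Next to the chromosome 3 cluster, 1 of 4 tested neighbours was higher and 1 lower, where limma called 7.58% of all genes higher and 9.6% lower. *Kyat3*, which encodes a kynurenine aminotransferase, had 636 and 643 normalized counts in *Pich*-KO against 322 and 238 in *Pich*-WT samples (log2 fold change 1.21, SE 0.19, adjusted p = 0.00365), and *Pdlim5*, on the far side of *Gbp5*, had a log2 fold change of -0.80 (SE 0.19, adjusted p = 0.0217). Next to the chromosome 5 cluster 1 of 4 was called, *Abcg3*, an ABC transporter gene beyond *Gbp8*, with means of 141 ± 4.13 and 1030 ± 126 normalized counts (SD, n = 2 each). Its log2 fold change was -2.85 (adjusted p = 6e-05). *Abcg3* and *Gbp8*, the nearest member, were both lower. edgeR called 18.6% of all genes it tested higher and 20.7% lower. Of these neighbours it called 3 of 4 higher and 1 lower on chromosome 3, and 2 of 4 lower on chromosome 5. Without *Pich*-WT sample 2 the median edgeR log2 fold change of these neighbours was 0.34 on chromosome 3 and -0.58 on chromosome 5. *Pdlim5*, at -0.62, was no longer called without *Pich*-WT sample 1.

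**Figure D4:**
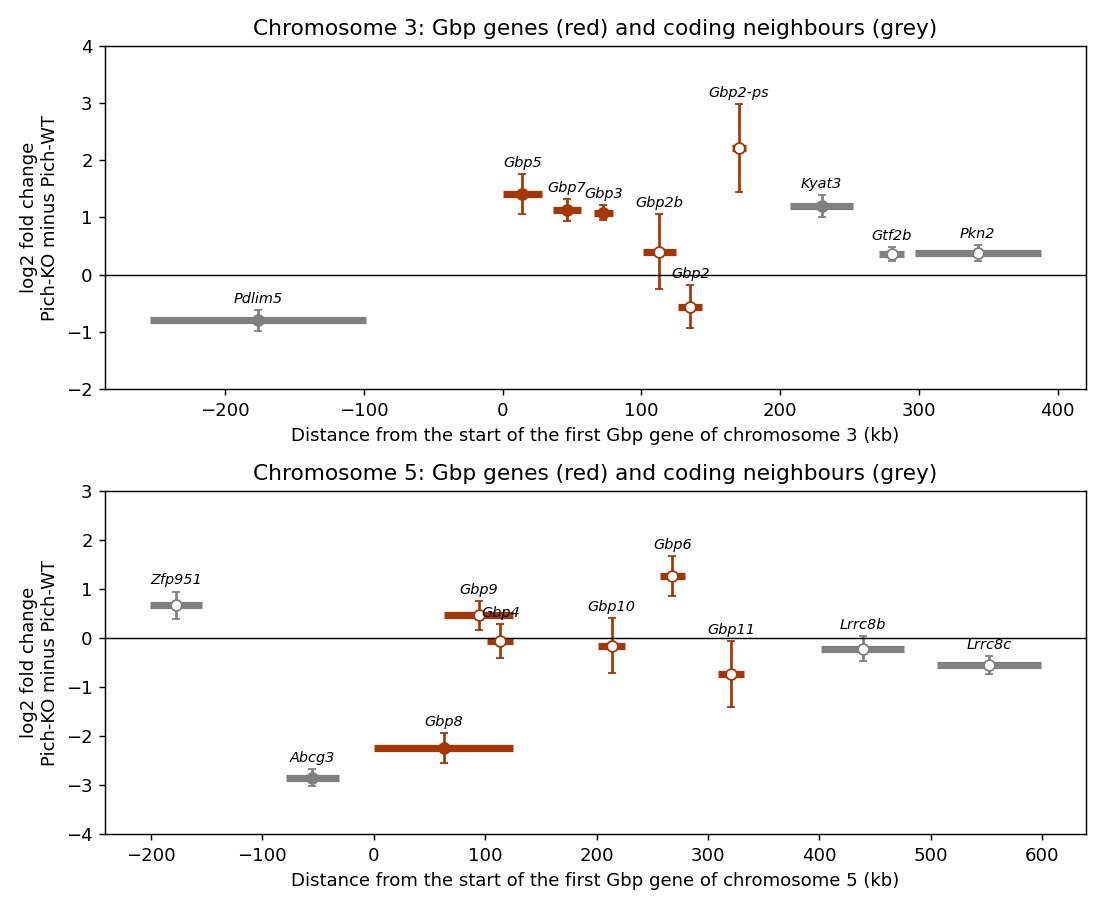
Log2 fold change of *Pich*-KO over *Pich*-WT (vertical axis, with the standard error) of the *Gbp* genes (red) and their coding neighbours (grey) against distance in kb from the first *Gbp* gene of chromosome 3 (top) and chromosome 5 (bottom). Horizontal bars span each gene, filled points had an adjusted p under 0.05 in limma, and *Gbp8* and *Abcg3* are the filled points at the lower left of the bottom panel, at -2.24 and -2.85.

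Of 17 interferon receptors, kinases, transcription factors and regulators, 4 were higher and 7 lower, with a median log2 fold change of -0.27. Limma called 7.58% of all genes tested higher and 9.6% lower, and these shares stand beside each limma count of a list below. *Stat2* and *Irf9*, which encode partners in a complex that binds the response element, were both higher. *Stat2* had 1496 and 1158 normalized counts in *Pich*-KO against 627 and 627 in *Pich*-WT samples (log2 fold change 1.07, SE 0.16, adjusted p = 0.00254), and *Irf9* rose by 0.75 on the log2 scale (adjusted p = 0.00433). *Nlrc5*, the activator of MHC class I genes, was at 1847 and 1458 against 267 and 297 normalized counts, with a log2 fold change of 2.54 (adjusted p = 7.47e-05). *Usp18*, which restrains signalling from the type I receptor, was at 6690 and 3071 against 230 and 245, with a log2 fold change of 4.25 (adjusted p = 0.000113). As in 8 of 8 *Gbp* genes, *Pich*-KO sample 1 was the higher for *Stat2*, *Nlrc5* and *Usp18*, though not for *Irf9*.

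*Irf1*, a direct activator of *Gbp* promoters in the interferon-γ response, had 1625 and 1551 normalized counts in *Pich*-KO against 1508 and 1497 in *Pich*-WT samples, with a log2 fold change of 0.08 (SE 0.11, adjusted p = 0.711). The receptor chains *Ifngr1*, *Ifngr2* and *Ifnar1* were lower, with log2 fold changes of -0.66, -0.55 and -0.56 (adjusted p of 0.0031, 0.0406 and 0.0185). In edgeR without *Pich*-WT sample 1 *Ifngr2* and *Ifnar1* did not pass (adjusted p of 0.22 and 0.0835). *Jak2*, a kinase of the interferon-γ receptor, was at 235 and 160 against 1314 and 887 normalized counts (log2 fold change -2.47, adjusted p = 0.000459). *Jak1*, *Irf2* and the feedback inhibitor *Socs3* were lower too, at -0.75, -0.75 and -1.58. *Ifnar2*, *Tyk2*, *Irf8*, *Batf2* and *Socs1* did not pass, at log2 fold changes between -0.48 and 0.29.

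**Figure D5:**
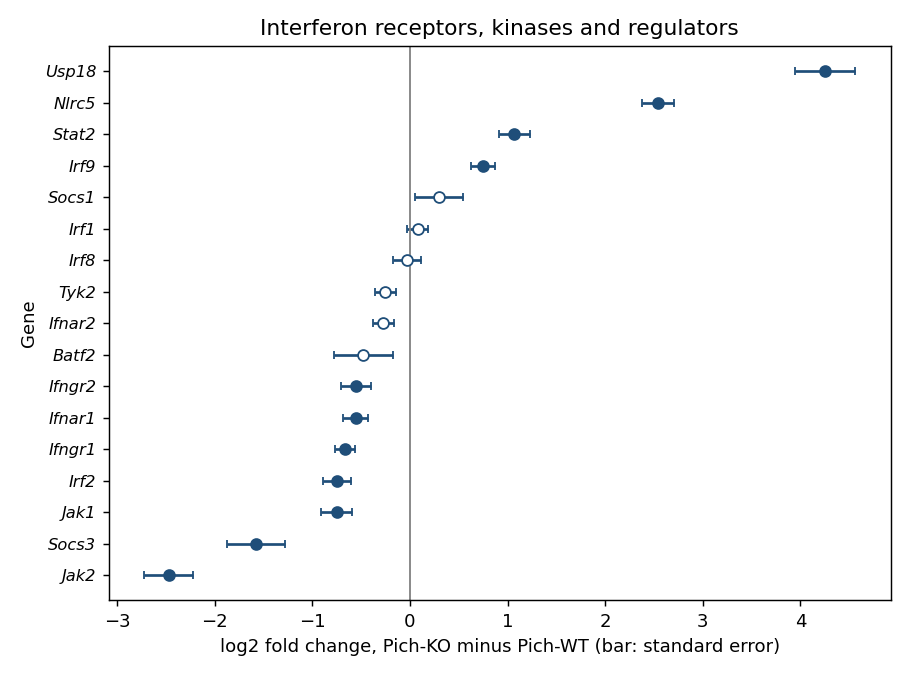
Log2 fold change of *Pich*-KO over *Pich*-WT with its standard error for 17 interferon receptors, kinases, transcription factors and regulators, ordered by value, with filled points where the adjusted p was under 0.05 in limma. *Usp18*, at 4.25, and *Jak2*, at -2.47, mark the ends, and *Irf1* lies near 0 at 0.08.

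The interferon genes examined, which include no *Ifna* gene, had at most 101 reads in a sample. Of 10 listed genes for interferons and for cytokines that act beside them, *Ifne* was not analysed here, and of the 9 tested 2 were lower. *Ifng*, the type II interferon, was covered by 14 and 8 reads in *Pich*-KO against 74 and 101 in *Pich*-WT samples, or 15.3 and 9.09 against 57.8 and 101 normalized counts (log2 fold change -2.60, SE 0.45, adjusted p = 0.00557). *Il18*, which drives interferon-γ release by lymphocytes, was at 140 and 79.6 against 400 and 427 normalized counts, with a log2 fold change of -1.96 (adjusted p = 0.00227). *Tnf* was at 281 and 248 against 266 and 245 normalized counts. *Ifnb1*, a type I interferon, had 21 and 12 reads against 8 and 5 (log2 fold change 1.5, SE 0.55, adjusted p = 0.112), and *Ifnl2* had 11 and 2 against 0 and 0 reads (adjusted p = 0.0861). *Ifnk*, *Ifnl3*, *Il27*, *Il12b* and *Tnf* had adjusted p of 0.415 to 0.978. None of the 9 was called higher in limma or among the 5 that edgeR tested, and 2 were higher at an unadjusted p under 0.05.

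The IRGs, which act beside GBPs at pathogen vacuoles, included 8 of 13 genes that were higher, with a median log2 fold change of 1.32. *Irgm1*, a regulator of the family, was at 4647 and 3618 normalized counts in *Pich*-KO against 170 and 344 in *Pich*-WT samples, and *Tgtp2*, an effector IRG, was at 2805 and 1515 against 231 and 272 (log2 fold changes 4.08 and 3.04, adjusted p = 0.000113 and 0.000253). The smallest among those called were *9930111J21Rik1* at 0.63 and *9930111J21Rik2* at 0.92.

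Among the genes of the inflammasomes that GBPs feed, 3 of 16 were higher and 3 lower, with a median of 0.09. Over all genes tested limma called 7.58% higher and 9.6% lower. The largest were *Zbp1*, a nucleic acid sensor, at 2.37, and *Casp4*, the caspase that binds lipopolysaccharide, at 0.77. The smallest were *Il1b* at -2.45 and *Il18* at -1.96. Of the 6 genes for the enzymes that attach and trim lipid anchors of the kind found on GBP2 and GBP5, 0 were called in limma (median 0.01), while 2 were higher at an unadjusted p under 0.05 and 2 were higher in edgeR. Of 17 other members of the dynamin superfamily 6 were higher and 4 lower (median 0.07). At the ends were the interferon-inducible *Gvin1* at 3.27 and *Mx1* at 3.23, and the endocytic ATPase genes *Ehd3* at -4.70 and *Ehd2* at -1.51.

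These lists were also fitted in edgeR without *Pich*-WT sample 2. With all samples edgeR called 18.6% of all genes it tested higher and 20.7% lower. Without either *Pich*-WT sample it called fewer genes over the whole table. With all samples 4 signalling genes were higher and 7 lower, and 2 cytokine genes were lower. The median edgeR log2 fold changes of these lists were -0.29 and 0.03 without *Pich*-WT sample 2, against -0.25 and -0.04 with all samples. For the IRGs the median edgeR log2 fold change was 1.45 with all samples. As single samples were left out, it ranged from 0.72 without *Pich*-KO sample 1 to 1.77 without *Pich*-KO sample 2. Without *Pich*-WT sample 1 this median was 1.33. Of the inflammasome genes edgeR called 4 higher and 3 lower with all samples, and fewer without either *Pich*-WT sample. Their median was 0.12 with all samples, 0.12 without *Pich*-WT sample 2 and 0.11 without *Pich*-WT sample 1. *Casp4* (adjusted p = 0.0762) and *9930111J21Rik1* (adjusted p = 0.108) did not pass without *Pich*-WT sample 2, nor without *Pich*-WT sample 1 (0.138 and 0.0928). Of the lipid anchor enzymes 2 were higher with all samples, and these calls were lost without either *Pich*-WT sample or without *Pich*-KO sample 1. Their median was 0.03 with all samples and 0.05 without *Pich*-WT sample 2. Of the dynamin superfamily genes 7 were higher and 4 lower with all samples, and fewer were called without either *Pich*-WT sample. Their median was 0.13 with all samples, 0.34 without *Pich*-WT sample 2 and 0.15 without *Pich*-WT sample 1.

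Genes listed as markers of cell types moved with genotype in the same libraries. Bulk values cannot tell whether LSK cells or other cells held these transcripts. Of 16 macrophage markers 15 were lower in *Pich*-KO samples, with summed normalized counts of 9305 to 10659 in *Pich*-KO against 64788 to 67205 in *Pich*-WT samples, and 1 marker, *Vsig4*, was at 0 in one *Pich*-KO sample. All 11 endothelial markers were lower, with sums of 1959 to 3396 against 27636 to 40570, as were all 12 erythroid markers tested, with sums of 33578 to 35919 against 142694 to 201475. Of 12 T and NK cell markers 5 were lower, with sums of 1026 to 1028 against 2197 to 2403, and of 8 monocyte and dendritic cell markers 5 were lower and 1, *Ly6c2*, was higher, with sums of 2798 to 4489 against 5161 to 6560. Of 8 granulocyte markers 3 were higher, with sums of 64323 and 120632 in *Pich*-KO samples 1 and 2, respectively, against 15261 to 18022 in the *Pich*-WT samples. Of 11 LSK markers *Ly6a*, itself interferon-inducible, was higher and 5 were lower, *Procr*, *Hlf*, *Mecom*, *Slamf1* and *Gata2*. The macrophage, endothelial, erythroid and lymphoid sums differed in the direction of *Gbp8*, *Ifng* and *Il18*, and the granulocyte sum in the direction of *Gbp3*, *Gbp5* and *Gbp7* between genotypes but not between the *Pich*-KO samples. Their part in these results was not tested. In edgeR without *Pich*-WT sample 2 the median log2 fold change was -5.05 for macrophage, -4.28 for endothelial and -2.22 for erythroid markers. It was -1.41 for T and NK cell, -1.94 for monocyte and dendritic cell, 1.86 for granulocyte and -0.42 for LSK markers. Without *Pich*-KO sample 1 the median was 2.33 for granulocyte and -0.78 for LSK markers. Without *Pich*-KO sample 2 it was 0.02 for granulocyte and -0.26 for LSK markers.

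The genes outside all lists whose pattern over the 4 samples was nearest to the mean profile of the 8 members were sought among 10407 genes that averaged 100 or more, by Euclidean distance between centered log2 values. They were *Arhgap6* at a distance of 0.07, *Mc5r* at 0.14, *Arl5b* at 0.16, *Igf2bp2* at 0.16 and *Lysmd2* at 0.19. In each of the 5 *Pich*-KO sample 1 was the highest, and none was called between genotypes in limma, with adjusted p of 0.375 to 0.742. The genes were picked for nearness to that profile, itself highest in *Pich*-KO sample 1 (0.61), so these traits largely follow from the choice. Among the members themselves *Gbp9* was nearest to the mean profile, at 0.16, and *Gbp8* farthest, at 2.55.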

How the data were processed

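The deposited table covers RNA sequencing of sorted fetal liver LSK cells in 2 *Pich*-KO and 2 *Pich*-WT samples. Its sample columns hold a signal that the authors made by dividing read counts on genes by one factor per sample. Read counts were recovered exactly by that factor, with 100% of values whole, and library totals are given in the text. The submitters' processing notes name Bowtie 0.12.2 and the builds mm8 and mm9, but the gene positions in the table are those of GRCm38 (97.8% of 39131 matched genes are placed as in GENCODE M21). The counter is not given in the sources used here. The authors' own log2 fold changes and p-values between the groups, also deposited in the table, were not used.

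The main test was limma 3.58.1 (R 4.3.3) with a variance trend on log2(normalized count + 1), over genes averaging 1 or more, with Benjamini-Hochberg adjustment over all of them, and fold changes on this scale are understated for low genes. It was checked on simulated data with the same variability setting for every gene, so that check does not measure its error rates in these samples. Alternatives were a pseudocount of 0.1, other filters, a replicate block, no variance trend, edgeR 4.0.16 and DESeq2 1.42.0 on the recovered reads, and each sample left out. An edgeR fit without each sample, for the members, lists and neighbours, and one value for *Gbp4*, *Gbp8* and *Gbp9* summed, were added after the data were seen. Replicates differed by more than sampling noise (chi-square per degree of freedom 14.7 in *Pich*-KO and 8.18 in *Pich*-WT). The labels do not say that samples came from separate embryos, so p-values measure the spread between these samples, which may be technical for *Pich*-KO. The 2 *Pich*-WT samples were not from the same embryo or pool, since the 4 Y-linked genes had reads in sample 1 and 0 in sample 2. Y-linked reads were therefore not balanced between the genotypes.

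Named were every *Gbp* gene, every gene of the interferon signalling and cytokine lists except 1 gene that is not reported here, the 2 largest and 2 smallest log2 fold changes among the called genes of each other list, called coding neighbours of the clusters, and the 5 genes nearest to the mean profile; markers of other cells were named by count, with single genes named after their values were seen. The members and lists were chosen with earlier results of these data known.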

Additional observations from a re-analysis of the deposited data

How the results depend on the processing

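Without a variance trend and in limma with any sample left out, which leaves 1 residual degree of freedom, 0 genes were called in the whole table, so 0 of the 8 *Gbp* genes and 0 of the interferon signalling list; without the trend 7377 genes and 3 of the 8 had an unadjusted p under 0.05. Under the other alternatives with all samples, 2 to 4 of the 8 genes were higher and 1 was lower, except for the replicate block. The block fit called 2 lower, adding *Gbp2* (adjusted p = 0.0462), and also called *Gbp6* higher (adjusted p = 0.00157). It changed no other *Gbp* call. This fit too leaves 1 residual degree of freedom, and *Gbp2* in *Pich*-KO sample 1 lay above both *Pich*-WT samples. The deviations of same-numbered samples had a correlation of 0.001. With 2 samples in each group this cannot show whether same-numbered samples were handled together, and the labels give them only a shared number. Over the whole table, 1840 to 3165 genes were higher and 2326 to 3874 lower in these fits, and 4 of the signalling list were higher in each.

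In edgeR with each sample left out, 2 to 6 of the 8 were higher and 1 to 3 lower, with 1717 to 3685 and 2270 to 3917 genes over the table. Leaving out *Pich*-KO sample 2 turned the log2 fold change of *Gbp2* to 0.12 (0.16 in edgeR), of *Gbp4* to 0.53 (0.55 in edgeR), of *Gbp10* to 0.41 (0.47 in edgeR) and of *Gbp4*, *Gbp8* and *Gbp9* summed to 0.36. Leaving out *Pich*-WT sample 2 turned *Gbp2b* to -0.030, *Gbp4* to 0.17 (0.31 in edgeR), the sum to 0.02 and *Gbp10* to 0.12 in edgeR, and leaving out *Pich*-KO sample 1 turned *Gbp9* to -0.015. Over limma and edgeR the other ends of these ranges were -1.25 for *Gbp2*, -0.65 for *Gbp4*, 0.83 for *Gbp2b*, 0.98 for *Gbp9*, -0.75 for *Gbp10* and -0.69 for the sum. With all samples *Gbp4* turned to 0.059 in edgeR with TMM, 0.066 with upper-quartile scaling and 0.040 in DESeq2. These scalings moved the median gene by at most 0.03 on the log2 scale. The causes were not tested.

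Depth limits *Gbp2b*, *Gbp10*, *Gbp11*, *Gbp2-ps* and most cytokine genes, which had under 30 reads in most samples. Sequence shared with other *Gbp* genes also limits *Gbp10* and *Gbp11*.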
